A study of Homo sapiens with 8 samples.

Results

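The genes described here are all those listed on chromosome MT in the deposited count table, 37 of 58735 genes. They were taken by chromosome and not by any measured value, but with earlier results of these data known. They comprise 13 protein-coding genes, 2 ribosomal RNA (rRNA) genes and 22 transfer RNA (tRNA) genes. On the plus strand lie 28 of them (12 protein-coding, both rRNA and 14 tRNA genes), and on the minus strand 9 (MT-ND6 and 8 tRNA genes). For each of the 37, position and strand in the table equal those in GENCODE 29, which annotates GRCh38, and coordinates below are those of the table.

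RNA came from SW480, a long-established line of human colorectal adenocarcinoma cells. As the labels and design text state, 4 libraries were made from cells that stably carry the vector alone (control libraries 1 to 4) and 4 from cells that stably overexpress SPOCK1, a secreted proteoglycan, with a FLAG tag (SPOCK1 libraries 1 to 4). The titles abbreviate the groups as Ct and SP, read here as control and SPOCK1. The treatment text, the same for all libraries, describes lentiviral infection followed by puromycin selection. It names neither the promoter of the construct nor the number of infections or clones. Whether each library is a culture of its own is also unstated, so p-values below measure how far these libraries spread, possibly for technical reasons alone, and other differences between 2 selected populations cannot be told apart from SPOCK1. In bulk RNA, fewer mitochondrial transcripts per cell and more of all other RNA cannot be told apart either.

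Mitochondrial DNA is a small circle that is transcribed from both strands into long precursors. The tRNA genes lie between most of the others, and their removal from the precursor frees the 2 rRNAs and the messenger RNAs. The heavy-strand promoters give the rRNAs and nearly all messenger RNAs, here the genes on the plus strand, and the light-strand promoter gives MT-ND6 and the remaining tRNAs. All 13 proteins are subunits of the respiratory chain or of ATP synthase, and every factor for copying, transcribing and processing this DNA is encoded in the nucleus. Cells hold many copies of this genome, and its transcripts are usually among the most abundant in total RNA.

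Library depth was 35643585 to 42812951 counts. SPOCK1 had a mean of 220.6 ± 31.1 CPM (counts scaled to a common library size, with sizes adjusted by TMM, a trimmed mean of log ratios; SD, n = 4) in the overexpressing libraries and 0.0959 ± 0.0722 CPM (SD, n = 4) in the controls, as the titles read above require. Of 12 markers of colon epithelium 8 were tested, and 1, the adhesion protein CDH1, fell (log2 fold change -0.67, adjusted p = 0.00537, edgeR quasi-likelihood test), against 0.798% of all genes. VIL1 (log2 fold change -0.27, adjusted p = 0.197) and GPA33 (-0.87, adjusted p = 0.357) did not pass. Of the 8, 3 had an unadjusted p under 0.05, against 13.7% of all genes. The groups did not overlap in CPM for 2 of the 8, CDH1 and VIL1, against 8.23% of all genes. KRT8 and KRT18 were highest, EPCAM had means of 218.4 and 219.6 CPM, and CDX2 104.3 and 93.1 CPM in control and SPOCK1 libraries, while KRT20, CDX1, CDH17 and LGALS4 were at or near 0. Markers of blood, vessel, fibroblast, muscle and liver cells summed to 4.63 to 5.94 CPM in controls and 4.90 to 5.94 CPM with SPOCK1, and 2 of the 13, DCN and LUM, were at 0. Levels also varied between libraries with the GC content of genes: from the lowest to the highest of 5 GC groups of genes, log2 CPM deviated by -0.27 to -0.13 in libraries 1 and 3 of both groups and by 0.03 to 0.26 in libraries 2 and 4.

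The following sequences (GENCODE 29, GRCh38) are those of genes whose position or overlap is described with their counts below. MT-TP and MT-TF are the tRNA genes that received counts, written 5′ to 3′ on the strand of the gene. MT-ATP8, which encodes a small subunit of ATP synthase, is shown with the 46 bases it shares with MT-ATP6 in capitals.
MT-TP (MT, 15956 to 16023, minus strand): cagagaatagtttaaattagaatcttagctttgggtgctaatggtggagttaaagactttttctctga
MT-TF (MT, 577 to 647, plus strand): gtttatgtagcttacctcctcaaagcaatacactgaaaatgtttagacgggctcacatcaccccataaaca
MT-ATP8 (MT, 8366 to 8572, plus strand): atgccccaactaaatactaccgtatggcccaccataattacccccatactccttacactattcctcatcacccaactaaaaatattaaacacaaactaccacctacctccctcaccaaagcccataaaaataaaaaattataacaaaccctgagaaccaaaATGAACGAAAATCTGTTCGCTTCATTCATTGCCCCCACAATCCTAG

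Mitochondrial genes gave 3.31% ± 0.29 of all counts in controls and 3.14% ± 0.25 with SPOCK1 (SD, n = 4 each). The share was 3.13%, 3.04%, 3.38% and 3.69% in control libraries 1 to 4 and 3.10%, 3.20%, 2.83% and 3.44% in SPOCK1 libraries 1 to 4. The groups overlapped, with control library 4 at the top and SPOCK1 library 3, the deepest library, at the bottom. Protein-coding genes took 2.59% ± 0.28 and 2.53% ± 0.24 of all counts and rRNA genes 0.714% ± 0.017 and 0.612% ± 0.045. The tRNA genes together took 0.0017% and 0.0021%. As sums over the genes described, these shares are given without a test.

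Within the mitochondrial counts, genes on the plus strand held 99.3% to 99.5% in each library. Genes on the minus strand, MT-ND6 and a small part from MT-TP, held 0.557% ± 0.030 in controls and 0.588% ± 0.061 with SPOCK1 (SD, n = 4 each), with overlap. The strand is that of the annotated gene. The strand setting of the counting is unstated, so reads of a gene and of RNA from the opposite strand cannot be told apart. The 3 subunits of cytochrome c oxidase (complex IV) held 55.1% ± 1.1 of protein-coding mitochondrial counts in controls and 54.9% ± 0.7 with SPOCK1. The 7 NADH dehydrogenase subunits (complex I) held 28.7% ± 0.9 and 29.1% ± 0.7, cytochrome b (complex III) 8.85% ± 0.19 and 8.58% ± 0.11, and the ATP synthase subunits (complex V) 7.36% ± 0.08 and 7.42% ± 0.11. The make-up by complex overlapped between the groups for each of the 4 complexes.

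Levels per length, in CPM per kilobase averaged over the 8 libraries, differed widely between genes that share a precursor. MT-CO2, the oxidase subunit that receives electrons from cytochrome c, was highest at 6824 CPM per kilobase and ranked at place 1 of 15790 tested genes on that scale. MT-CO3 followed at 5230.1, the large rRNA MT-RNR2 at 3816 and MT-CO1, the catalytic oxidase subunit, at 3464.5 CPM per kilobase. MT-ATP6, MT-ND3, MT-ND4 and MT-CYB lay between 1956.5 and 2771 CPM per kilobase, and MT-ND2, MT-ND1 and MT-ND4L between 984 and 1329.5. MT-RNR1, the small rRNA, stood at 712 CPM per kilobase, so that MT-RNR2 was 5.36-fold higher than it. MT-ND5 stood at 382, MT-ND6 at 316 and MT-TP at 276 CPM per kilobase. MT-CO2 was thus 17.9-fold higher than MT-ND5 on the same strand and 21.6-fold higher than MT-ND6 on the other. The labels name total RNA and the NEBNext Ultra RNA library kit, and do not mention selection for poly(A) tails or depletion of rRNA, either of which would set rRNA levels relative to messenger RNA.

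**Figure D1:**
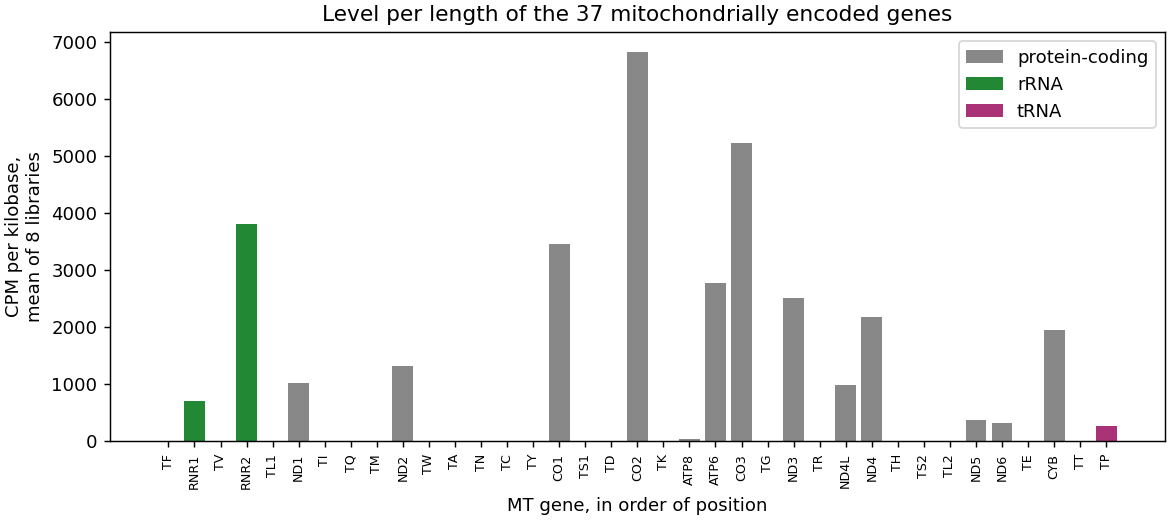
Level per length (CPM per kilobase, mean of the 8 libraries) of all 37 mitochondrially encoded genes in order of position, with colours for protein-coding, rRNA and tRNA genes. MT-CO2 is highest at 6824 CPM per kilobase, MT-ATP8 stands at 41.0, and MT-TP is the one tRNA gene with a visible bar.

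The gene pairs that share bases showed unequal counts. MT-ATP8 stood at 41.0 CPM per kilobase and MT-ATP6, read from the same messenger RNA, at 2771, a ratio of 67.6. MT-ATP8 has 161 bases that it does not share with MT-ATP6. MT-ND4L and MT-ND4, also on one messenger RNA and sharing 7 bases, stood at 984 and 2177 CPM per kilobase, a ratio of 2.21. How the counting treated reads that touch 2 genes is unstated, and its part in the low MT-ATP8 counts was not tested. Raw MT-ATP8 counts in the 4 controls, in order, were 299, 321, 268 and 379, and with SPOCK1 they were 359, 278, 363 and 317. The 2 groups covered nearly the same range.

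Of the 22 tRNA genes 20 had 0 counts in every library: MT-TV, MT-TL1, MT-TI, MT-TQ, MT-TM, MT-TW, MT-TA, MT-TN, MT-TC, MT-TY, MT-TS1, MT-TD, MT-TK, MT-TG, MT-TR, MT-TH, MT-TS2, MT-TL2, MT-TE and MT-TT. Each of them is 59 to 75 bases long and lies at most 31 bases from another gene on either side. A count of 0 allows up to 3 counts, or 0.0693 to 0.0855 CPM in a single library, for counting error only. How the counting treated reads that touch 2 genes is unstated, so this limit is one on counts and not on the RNA. Both tRNA genes with counts border the control region, the stretch without genes that holds the promoters: 576 bases without a gene precede MT-TF, and no gene follows MT-TP in the annotation. MT-TF, the tRNA for phenylalanine, received 2, 3, 0 and 1 counts in the controls, in order, and 0, 0, 3 and 4 with SPOCK1, too few to compare. MT-TP, the tRNA for proline, had 5695 counts over the 8 libraries. Libraries made for longer RNA capture short tRNAs poorly, so these values are not read as amounts of mature tRNA.

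For the comparison of the groups, genes passed a filter on low counts (edgeR's filterByExpr), which kept 15790 genes and 16 of the 37 members: all 13 protein-coding genes, both rRNAs and MT-TP. The other 21 members, all of them tRNA genes, were not tested. Among all genes tested 1.04% were called changed at an adjusted p under 0.05 (edgeR quasi-likelihood test, Benjamini-Hochberg over all genes), 0.247% as rises and 0.798% as falls. These were 39 rises and 126 falls, and with offsets for GC content and deposited gene length they were 367 rises and 254 falls. Of the 16 mitochondrial genes 0 rose and 0 fell. DESeq2 and limma-voom also called 0 of 16. At an unadjusted p under 0.05 were 2 of the 16, MT-RNR2 and MT-TP, against 13.7% of all genes. In CPM the groups overlapped for all 16, against 8.23% of all genes without overlap. The median log2 fold change (SPOCK1 minus control) was 0.01 over the 16 and -0.0042 over all genes tested.

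**Figure D2:**
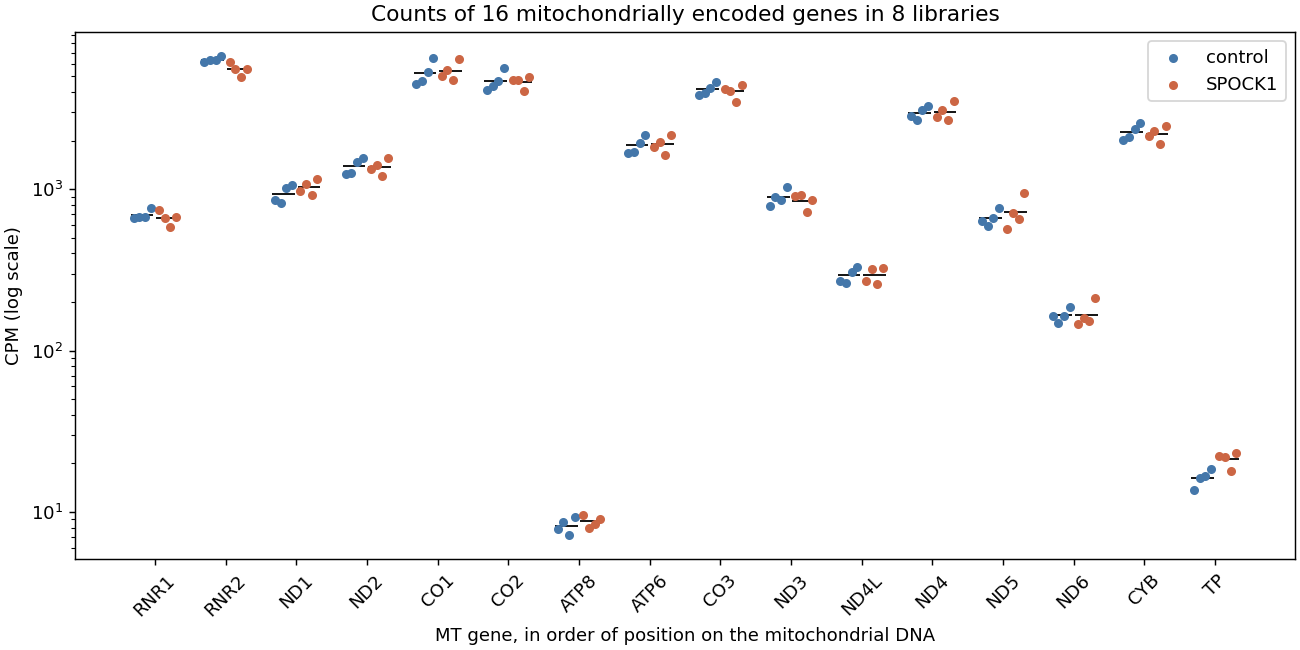
CPM on a log scale of the 16 tested mitochondrial genes in each of the 8 libraries, in order of position, with a line at each group's mean. The points of both groups overlap for each gene, and control library 4 (the fourth blue point) is the highest control throughout.

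The 13 messenger RNAs did not pass the test. Their log2 fold changes ran from -0.07 (MT-ND3) to 0.14 (MT-ND1), 8 positive and 5 negative, with adjusted p of 0.532 to 0.993. The lowest end of their 95% intervals was -0.27, a change of -17.0%, and the highest was 0.37, or 1.30-fold, on this fit. Other fits moved these ends: with offsets for GC content and deposited gene length MT-ND3 was at -0.18 ± 0.11 (SE), against -0.07 ± 0.09 here. MT-CO1 was at 4460, 4698, 5311 and 6516 CPM in control libraries 1 to 4 and 5047, 5508, 4779 and 6419 CPM in SPOCK1 libraries 1 to 4. The lowest value of the 8 and the highest were both controls, with a change of 0.05 ± 0.11 on the log2 scale (SE; adjusted p 0.884). MT-CO2 and MT-CO3 had log2 fold changes of -0.02 ± 0.10 and -0.05 ± 0.09 (SE, adjusted p = 0.942 and 0.860).

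Among complex I subunits, MT-ND1, which lies in the membrane arm near the quinone site, had the most positive log2 fold change. It was at 855, 816, 1019.7 and 1056 CPM in control libraries 1 to 4 and 981, 1079, 927 and 1153 CPM in SPOCK1 libraries 1 to 4. SPOCK1 libraries 1 and 3 lay below control libraries 3 and 4, and on the log2 scale the change of 0.14 ± 0.10 (SE) had an adjusted p of 0.532. It was 0.03 within libraries 1 and 3 of both groups and 0.25 within libraries 2 and 4 (adjusted p 0.940 and 0.255). Leaving out 1 library gave 0.08 (without control library 2) to 0.21 (without control library 4). MT-ND5, a proton-pumping subunit, varied most with SPOCK1: 569, 712, 649.6 and 942 CPM in SPOCK1 libraries 1 to 4 against 639, 589.6, 667 and 762 CPM in control libraries 1 to 4. SPOCK1 library 4 alone stood above all controls, SPOCK1 library 1 below them, with a change of 0.11 ± 0.12 on the log2 scale (SE; adjusted p 0.736). MT-ND6, the light-strand messenger RNA, was at 164.7, 147.7, 162.8 and 185 CPM in control libraries 1 to 4 and 145.8, 158.3, 151.6 and 212 CPM in SPOCK1 libraries 1 to 4, with SPOCK1 library 4 again highest. The change was 0.02 ± 0.11 on the log2 scale (SE; adjusted p 0.966). MT-ND2, MT-ND3, MT-ND4 and MT-ND4L, further membrane-arm subunits, had log2 fold changes of -0.01, -0.07, 0.02 and 0.00.

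MT-CYB, cytochrome b, the mitochondrially encoded subunit of complex III, had a mean of 2262 ± 244 CPM in controls and 2203 ± 238 CPM with SPOCK1 (SD over 4 libraries each). MT-ATP6, the channel subunit of ATP synthase, had means of 1874 ± 230.4 and 1900.1 ± 231 CPM. Their log2 fold changes were -0.04 ± 0.09 and 0.02 ± 0.10 (SE, adjusted p = 0.898 and 0.952), less than the spread between libraries.

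The members varied together from library to library. Control library 4 was the highest control for 16 of 16 tested genes, and SPOCK1 library 4 the highest SPOCK1 library for 12 of 16. SPOCK1 library 3 was the lowest of its group for 13 of 16, and control library 1 for 10 of 16. No share over all genes is set beside these counts, so these orders may not be particular to the members. The coefficient of variation between libraries had a median of 10.9% in controls and 10.8% with SPOCK1 over the 13 messenger RNAs. Over 2060 nuclear genes with a mean of at least 100 CPM it was 7.12% and 7.58%. The libraries that stood high, both numbered 4, had the most positive GC trends (0.255 and 0.264). Control library 2 had a trend of 0.208 and yet the lowest mitochondrial share of the controls, 3.04%. The most negative trend was that of SPOCK1 library 1 (-0.266), while SPOCK1 library 3, mostly the lowest of its group, had -0.191. Whether GC content sets these levels was not tested. With offsets for GC content and deposited gene length the median log2 fold change was -0.08 over the 16 genes and 0.03 over all genes. Without control library 4 the median log2 fold change of the 16 was 0.07, and without SPOCK1 library 4 it was -0.06, with 0 of 16 called in both.

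The large rRNA, MT-RNR2 (ENSG00000210082, MT, 1671 to 3229), had the most negative log2 fold change of the 16. It took 0.643%, 0.630%, 0.642% and 0.663% of all counts in control libraries 1 to 4 and 0.598%, 0.546%, 0.501% and 0.540% in SPOCK1 libraries 1 to 4. As a share of raw counts each SPOCK1 library lay below each control, on a scale where 9.09% of all tested genes did not overlap. In CPM on TMM-scaled sizes the values were 6111, 6320.5, 6301.5 and 6675 in controls and 6143, 5544, 4953.5 and 5547 with SPOCK1, and SPOCK1 library 1 lay above control library 1. Group means were 6352 ± 235 and 5547 ± 486 CPM (SD over 4 libraries each). The log2 fold change was -0.20 ± 0.08 (SE; 95% interval -0.36 to -0.03). The unadjusted p was 0.0243 and the adjusted p 0.296 (edgeR quasi-likelihood test), so this gene did not pass.

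MT-RNR2 is most of what is counted as rRNA in these libraries. The 2 mitochondrial rRNA genes held 99.96% to 99.98% of counts of all rRNA genes, nuclear rRNA genes and rRNA pseudogenes included, and the nuclear ones had 51 to 103 counts per library. A difference between the groups in the share of rRNA counts is therefore a difference in these 2 genes. MT-RNR1 (ENSG00000211459, MT, 648 to 1601), the small rRNA, was at 659, 671, 677 and 763 CPM in control libraries 1 to 4 and 742, 667, 581 and 673 CPM in SPOCK1 libraries 1 to 4. The groups overlapped, and the change was -0.06 ± 0.08 on the log2 scale (SE; adjusted p 0.809).

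**Figure D3:**
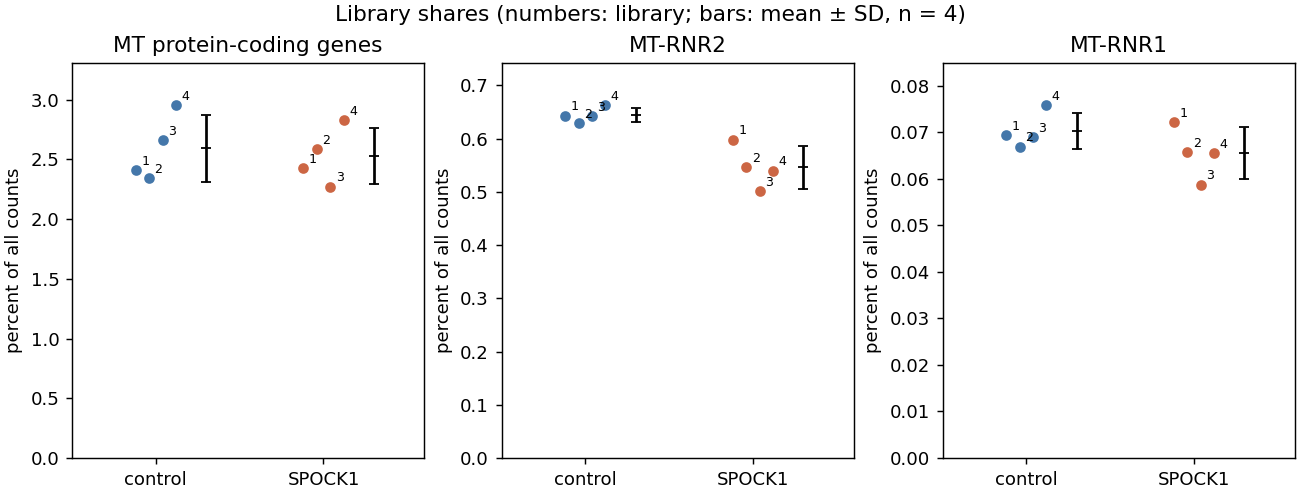
Percent of all counts taken by mitochondrial protein-coding genes, MT-RNR2 and MT-RNR1, one point per library with its number, and bars for mean ± SD (n = 4). MT-RNR2 lies at 0.630% to 0.663% in controls and 0.501% to 0.598% with SPOCK1, while the other 2 shares overlap between the groups.

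MT-RNR2 kept its negative sign in every alternative run, with log2 fold changes of -0.28 to -0.14. It was -0.16 within libraries 1 and 3 of both groups and -0.23 within libraries 2 and 4 (adjusted p = 0.615 and 0.177). It was called in 1 alternative, with offsets for GC content and transcript length (-0.28, adjusted p = 0.0422), which called 1.82% of all genes as falls and 2.88% as rises. The same offsets with the deposited gene length, which called 1.61% as falls, gave -0.27 and an adjusted p of 0.0602, and adjusted p over the other alternatives was 0.177 to 0.615. Without SPOCK1 library 3, the lowest library, the log2 fold change was -0.14 (adjusted p = 0.499).

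MT-TP (ENSG00000210196) had the largest log2 fold change of the 16. Raw counts ran 526, 605, 620 and 760 over the controls, in order, and 830, 765, 771 and 818 over the SPOCK1 libraries. In CPM these were 13.7, 16.3, 16.7 and 18.5 in controls and 22.2, 21.8, 17.8 and 23.3 with SPOCK1. SPOCK1 library 3 fell below control library 4, and the other SPOCK1 libraries lay above all controls. The log2 fold change was 0.38 ± 0.12 (SE, 95% interval 0.13 to 0.63, unadjusted p = 0.00490, adjusted p = 0.155, edgeR quasi-likelihood test). MT-TP did not pass in any alternative, with adjusted p of 0.0601 to 0.438, and its log2 fold change lay between 0.31 and 0.46. The gene is 68 bases long and lies 2 bases from MT-TT, and reads of its own strand and of the opposite one cannot be told apart.

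As a share of the mitochondrial counts alone, which does not depend on library scaling, 2 of the 16 genes did not overlap between the groups. Of the tested nuclear genes, each set against the same mitochondrial total, 3.78% did not overlap. That is not a like background, since the members are parts of this total and vary with it, and nuclear genes are not parts of it. Among ratios of 2 nuclear genes with a mean of at least 100 CPM, 13.0% did not overlap. MT-TP held 0.0463% to 0.0535% in controls and 0.0636% to 0.0697% with SPOCK1. MT-ND1 held 2.67% to 3.08% in controls and 3.08% to 3.32% with SPOCK1, with the ranges all but touching at 3.077% and 3.081%. MT-RNR2 held 19.6% ± 1.3 in controls and 17.4% ± 1.5 with SPOCK1 (SD, n = 4 each), and its ranges overlapped.

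Ratios within a library were compared for 4 pairs with an exact two-sided permutation test of the mean log2 ratio, whose smallest possible p with 4 against 4 libraries is 0.0286. MT-RNR2 to MT-RNR1, the 2 rRNAs, was 9.27, 9.41, 9.31 and 8.74 in control libraries 1 to 4 and 8.28, 8.31, 8.53 and 8.24 in SPOCK1 libraries 1 to 4. Each SPOCK1 ratio lay below each control ratio, with a log2 difference of -0.14 (exact permutation p = 0.0286, 0.0571 adjusted over the 4 ratios). MT-CYB to MT-ND1, the far against the near messenger RNA of the heavy-strand precursor, was 2.38, 2.57, 2.32 and 2.42 in controls and 2.17, 2.13, 2.07 and 2.14 with SPOCK1. These too were all lower with SPOCK1, with a log2 difference of -0.19 (exact permutation p = 0.0286, 0.0571 adjusted). Neither passed an adjusted threshold of 0.05. With only 2 of the 4 ratios at the smallest possible p, 0.0571 is the lowest adjusted value that they could reach. Not passing was thus set by the number of libraries and ratios, and no conclusion is drawn from it. Among ratios of 2 nuclear genes with a mean of at least 100 CPM, 13.0% did not overlap between the groups. The ratio of MT-ND1 to its neighbour MT-ND2 also did not overlap between the groups, and a part of distance along the precursor was not tested.

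The other 2 ratios overlapped between the groups. MT-CO1 to MT-RNR2, messenger RNA against rRNA, was 0.730, 0.743, 0.843 and 0.976 in control libraries 1 to 4 and 0.821, 0.993, 0.965 and 1.16 in SPOCK1 libraries 1 to 4 (log2 difference 0.26, exact permutation p = 0.171, 0.229 adjusted). It was lowest in control libraries 1 and 2 and highest in SPOCK1 library 4. MT-ND6 to MT-CYB, light-strand against heavy-strand messenger RNA by annotation, had means of 0.0732 ± 0.0055 and 0.0756 ± 0.0083 (SD, n = 4 each; log2 difference 0.04, exact permutation p = 0.714, also 0.714 adjusted). As reads of opposite strands cannot be told apart, counts of either gene may include RNA from the opposite strand.

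**Figure D4:**
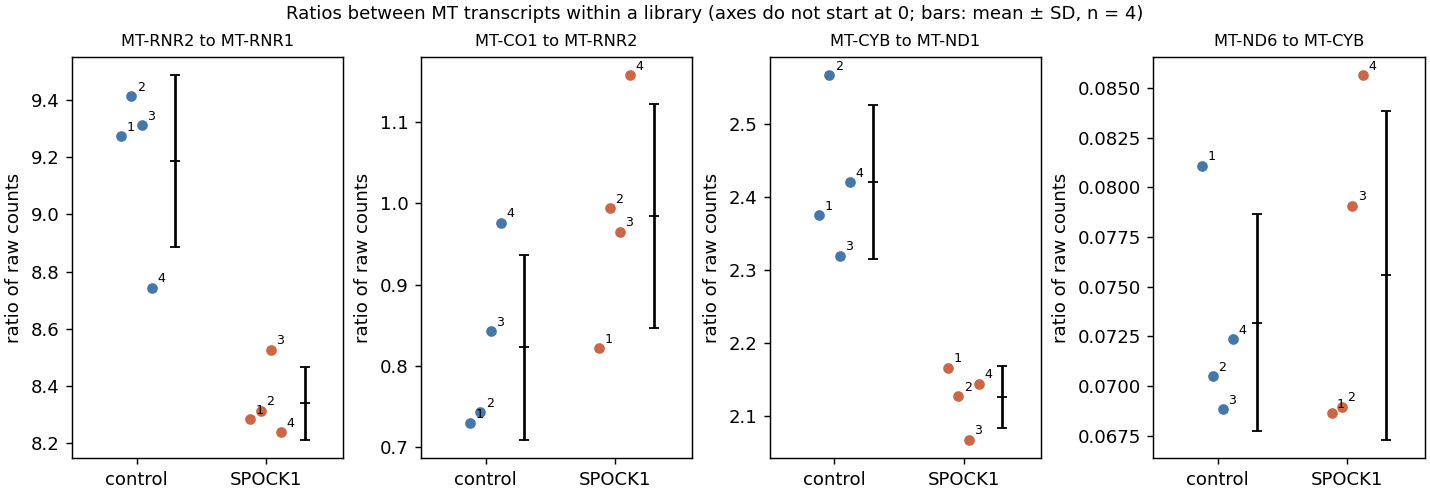
Ratio of raw counts of 4 pairs of mitochondrial genes in each library (points with library numbers, axes not starting at 0) and mean ± SD (n = 4). The groups separate for MT-RNR2 to MT-RNR1 and for MT-CYB to MT-ND1 and overlap for the other 2 pairs.

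Of all 120 pairs of the 16 tested genes, 17 had ratios that did not overlap between the groups, or 14.2%. Each of the 17 pairs held MT-TP, MT-RNR2 or MT-ND1, and 11 of them held MT-TP. Among the 14 members with a mean of at least 100 CPM, which leaves out MT-TP and MT-ATP8, 5 of 91 pairs did not overlap, or 5.49%. These were MT-RNR2 with MT-RNR1 and 4 pairs that hold MT-ND1, with MT-ND2, MT-ATP6, MT-ND4L and MT-CYB. The ratio of MT-CYB to MT-ND2 overlapped. Among all pairs of the 2060 nuclear genes above the same level the share was 13.0%.

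**Figure D5:**
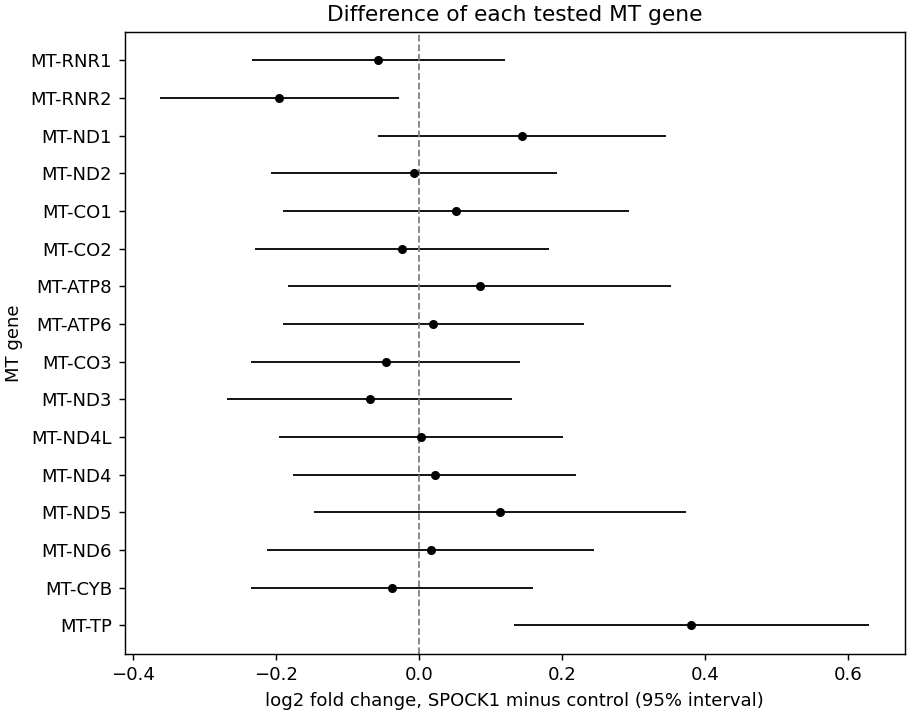
Log2 fold change (SPOCK1 minus control) with its 95% interval for each of the 16 tested mitochondrial genes. The intervals of MT-RNR2 and MT-TP do not cross 0 before adjustment, and neither gene passes after adjustment over 15790 genes.

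Nuclear copies of mitochondrial genes, pseudogenes that arose when mitochondrial DNA entered the nuclear genome, also received counts. The table holds 407 genes named as such copies, 35 with any count and 7 with a mean of at least 10. The largest was MTATP6P1 (ENSG00000248527, chromosome 1, 633696 to 634376, plus strand), where controls held 14655, 14374, 16362 and 20215 counts and SPOCK1 libraries 15607, 15564, 15313 and 16866, in order. It differs from MT-ATP6 at 10 of 681 bases in GENCODE 29 and shares runs of up to 141 identical bases with it. A window of 40 bases of each shows 2 of the 10 differences in capitals, C534A and C549T (the base of MT-ATP6, its position counted from 1 at the start of MT-ATP6, then the base of MTATP6P1).
MT-ATP6 (MT, 9047 to 9086, plus strand): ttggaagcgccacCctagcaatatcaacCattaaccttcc
MTATP6P1 (chromosome 1, 634216 to 634255, plus strand): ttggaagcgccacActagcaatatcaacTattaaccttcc

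MTATP6P1 had 21.7% to 22.9% as many counts as MT-ATP6 in every library, with means of 22.7% ± 0.1 in controls and 22.3% ± 0.5 with SPOCK1 (SD, n = 4 each). MTND2P28 had 3.97% to 4.56% of the counts of MT-ND2, and MTCO1P12 0.232% to 0.280% of those of MT-CO1. MTRNR2L12, MTCO3P12, MTND4P12 and MTND1P23 had at most 0.0382% of the counts of the gene they copy. Near-identical copies can split reads, and reads that match both may also be dropped, as the handling of multi-mapping reads is unstated. These shares therefore do not bound the uncertainty in the levels of MT-ATP6, MT-ND2 or other copied genes. Runs of identical bases reached 266 in MTND2P28, 245 in MTCO1P12 and 158 in MTND1P23. Neither MT-ATP6 nor MT-ND2 is in the 4 ratios above, so those ratios cannot show what read splitting does to them. With copies added to the gene they copy, the 4 ratios kept their values to within 0.001 on the log2 scale. Reads dropped from both would not be restored by this sum.

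The nuclear genes that serve mitochondrial transcripts were taken as 3 lists. Of 18 tested genes of mitochondrial transcription and DNA replication, 0 rose and 0 fell. Their log2 fold changes were positive in 14 of 18, with a median of 0.07. Of 51 tested genes of mitochondrial RNA processing, modification and turnover, 0 rose and 0 fell, with 45 of 51 positive and a median of 0.10. Of 17 regulators of mitochondrial biogenesis 16 were tested, 0 rose and 0 fell, with 8 positive and a median of 0.01. Over all genes tested 49.2% were positive. The lists were chosen with earlier results of these data known, and genes of a list can vary together. These counts of signs are therefore a description and not a test. The list of RNA processing had 39 to 47 positive members, and that of transcription 12 to 16, over all alternatives run. The 39 were without SPOCK1 library 1, where 47.4% of all genes were positive. The 47 were with offsets for GC content and length, where 56.2% to 56.5% of all genes were. At an unadjusted p under 0.05 were 6 of the 85 tested genes of the 3 lists, against 13.7% of all genes, and DESeq2 and limma-voom called 0.

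POLRMT, the mitochondrial RNA polymerase, had means of 130.8 ± 9.6 CPM in controls and 128.5 ± 17.8 CPM with SPOCK1 (SD over 4 libraries each), a change of -0.03 ± 0.09 on the log2 scale (SE; adjusted p 0.935). Its partners at the promoter, TFAM and TFB2M, had log2 fold changes of 0.13 ± 0.10 and 0.21 ± 0.13 (SE, adjusted p = 0.617 and 0.495), and the elongation factor TEFM 0.25 ± 0.21 (adjusted p = 0.645). LRPPRC and SLIRP, a pair of proteins that stabilise mitochondrial messenger RNA, had 0.02 ± 0.12 and 0.25 ± 0.15 (SE, adjusted p = 0.956 and 0.492). ELAC2, which cuts tRNA ends out of the precursor, had 0.14 ± 0.08 (adjusted p = 0.459). Without SPOCK1 library 1 the value of SLIRP was 0.08 and that of TFAM 0.04. FASTK, which is linked to MT-ND6 RNA, had -0.05 ± 0.09 (adjusted p = 0.864). None of these passed the test.

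PNPT1 and SUPV3L1 form the complex that degrades mitochondrial RNA. They had log2 fold changes of 0.24 ± 0.13 and 0.19 ± 0.08 (SE, adjusted p = 0.459 and 0.326). SUPV3L1 had means of 42.6 ± 1.9 and 48.7 ± 3.0 CPM (SD over 4 libraries each) without overlap between the groups. Of the 85 tested list genes 3 had no overlap, against 8.23% of all genes. The other 2 were CDK5RAP1, and FASTKD5, an RNA-processing protein named after its values were seen. PPARGC1A, a coactivator of mitochondrial biogenesis, was near the limit of detection at 0.548 ± 0.215 and 0.470 ± 0.271 CPM. With offsets for GC content and deposited length, CDK5RAP1, a tRNA-modifying enzyme, and DDX28, a mitochondrial RNA helicase, were called as rises, 2 of 85 list genes where 2.32% of all genes were called as rises. Both were named after their values were seen, and without offsets their log2 fold changes were 0.24 ± 0.07 and 0.27 ± 0.11 (SE, adjusted p = 0.153 and 0.279).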

How the data were processed

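The deposited values are whole-number read counts per gene, without normalization. The submitters' processing notes list featureCounts 1.5.0-p3, HISAT2 2.0.5 and CASAVA. Build, strand setting and the handling of multi-mapping or overlapping reads were not stated in the labels or headers used here. The deposited gene length in bases, an other kind of value, was used for levels per kilobase and for offsets. Counts were tested with edgeR 4.0.16 in R 4.3.3: filterByExpr (minimum count 10, minimum total 15), TMM factors and the quasi-likelihood F test on the groups, adjusted by Benjamini-Hochberg over 15790 genes. The standard error was taken from the F statistic. Tested on simulated data for this comparison (15536 genes), the fit recovered 63.1% of genes changed 1.5-fold and 83.1% of those changed 2-fold. False calls made up 4.35%. The simulated counts were drawn for each gene on its own from the dispersions of this fit. They held no GC trend and no variation shared between genes, so these rates need not hold for the real libraries. Alternatives were RLE and upper-quartile factors, library sizes without MT genes, DESeq2 1.42.0, limma-voom (limma 3.58.1), other filters, a replicate block, GC and length offsets (splines of 5 degrees of freedom) and each library left out. Added after seeing the data were fits within libraries 1 and 3 or 2 and 4, and a second length for the offsets: these were first computed with the longest transcript's length, which called MT-RNR2, and then with the deposited gene length, which is given as the planned version.

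Named were all MT genes, SPOCK1, 11 nuclear genes set by name, members of the 3 lists past an adjusted p of 0.05 and nuclear copies with a mean of at least 10 counts. Of 86 list symbols 2 were found through a table of current names. Members and lists were chosen with earlier results of these data known.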

Additional observations from a re-analysis of the deposited data

Results flagged for a closer look

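In 52 groups of 4 libraries (16 genes, 3 shares, 4 ratios and 3 nuclear copies in both conditions), 2 held a library whose gap to its nearest neighbour exceeded Dixon's 95% limit as a share of the group's range, which chance passes in about 1 of 20 groups. MT-RNR1 stood at 763.5 CPM in control library 4 and at 659.0 to 676.7 CPM in the other controls. MTATP6P1 had 22.86% as many counts as MT-ATP6 in control library 2 and 22.69% to 22.71% in the other controls.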

How the results depend on the processing

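Of the 16 tested mitochondrial genes 0 rose and 0 fell under each alternative except offsets for GC content and transcript length, where 1, MT-RNR2, fell (-0.28, adjusted p = 0.0422). These offsets called 2 rises in the nuclear lists, as did those with the deposited length, and all other alternatives called 0. Over all genes 39 rises and 126 falls became 113 and 285 with DESeq2, 120 and 279 with no filter beyond 1 count, 367 and 254 with offsets for GC content and deposited length, 455 and 288 with transcript length, and 1 and 7 within libraries 1 and 3. Leaving out 1 library gave 24 to 66 rises and 63 to 171 falls, with losses of over 1.5 times when control library 2, control library 4, SPOCK1 library 2 or SPOCK1 library 3 was dropped, and 66 rises and 171 falls when SPOCK1 library 4 was. The cause of these shifts was not tested.

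The replicate number did not pair the libraries: same-numbered libraries correlated at -0.159, 0.091, 0.113 and 0.176 in their deviations from the group means. With the replicate number as a block 115 genes were called, 0 of them mitochondrial, and the exact sign-flip test, which cannot go below 0.125 with 4 pairs, gave 0.125 for the ratios MT-RNR2 to MT-RNR1, MT-CO1 to MT-RNR2 and MT-CYB to MT-ND1.

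Log2 fold changes near 0 changed sign, none of them called. With offsets for GC content and deposited length (or transcript length) these were MT-CO1 at -0.0019 (-0.0034), MT-ATP8 at -0.038 (-0.038), MT-ATP6 at -0.067 (-0.073), MT-ND4L at -0.099 (-0.100), MT-ND4 at -0.041 (-0.046), MT-ND6 at -0.069 (-0.075), POLRMT at 0.110 (0.118) and FASTK at 0.045 (0.045). Within libraries 1 and 3 they were MT-CO2 at 0.0034, MT-ATP6 at -0.062, MT-ND4L at -0.131, MT-ND4 at -0.116, MT-ND5 at -0.096, MT-ND6 at -0.136, LRPPRC at -0.026, FASTK at 0.020, PPARGC1A at 0.041 and the ratio MT-ND6 to MT-CYB at -0.020. Within libraries 2 and 4 they were MT-ND2 at 0.070, MT-ATP8 at -0.081, MT-CYB at 0.034 and POLRMT at 0.0060. MT-ND4L was at -0.00019 with limma-voom and -0.00039 with a filter at a mean of 1 CPM.

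Leaving out 1 library gave ranges that span 0 for MT-RNR1 (-0.12 to 0.0029), MT-ND2 (-0.070 to 0.055), MT-CO1 (-0.036 to 0.17), MT-CO2 (-0.084 to 0.075), MT-ATP6 (-0.051 to 0.097), MT-CO3 (-0.094 to 0.021), MT-ND3 (-0.13 to 0.0073), MT-ND4L (-0.049 to 0.061), MT-ND4 (-0.060 to 0.076), MT-ND5 (-0.044 to 0.21), MT-ND6 (-0.12 to 0.073), MT-CYB (-0.096 to 0.025), POLRMT (-0.12 to 0.022), LRPPRC (-0.064 to 0.12), FASTK (-0.096 to 0.0013) and PPARGC1A (-0.59 to 0.090). The log2 difference of MT-ND6 to MT-CYB ran from -0.020, without SPOCK1 library 4, to 0.093. MT-RNR2 (-0.25 to -0.14), MT-TP (0.31 to 0.46), MT-RNR2 to MT-RNR1 (-0.16 to -0.13) and MT-CYB to MT-ND1 (-0.21 to -0.16) kept their sign in these fits, as did MT-ND1 (0.083 to 0.21), SLIRP (0.078 to 0.40), TFAM (0.042 to 0.20), TFB2M (0.11 to 0.29), TEFM (0.14 to 0.39) and PNPT1 (0.14 to 0.34), whose values moved by over 1.5 times.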
